A study of Mus musculus with 10 samples.

Results

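Claudins are the membrane proteins that decide what passes between the epithelial cells of a tubule. Each segment of the nephron, the tubule that turns blood filtrate into urine, carries its own set of them, so that some segments let cations through, some let anions through and others seal the gap. They are anchored under the membrane by PDZ-domain scaffolds, of which Tjp1 (ZO-1) is the best known. The 10 genes described here are the 9 claudins Cldn1, Cldn2, Cldn3, Cldn4, Cldn7, Cldn8, Cldn10, Cldn16 and Cldn19, chosen because they are known in nephron segments, together with Tjp1. All 10 of 10 were among the 13837 genes with values, and all 10 passed the filter on low values (at least 10 normalized counts in at least 5 mice), which left 13197 genes tested.

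RNA was read from the 3′ end (QuantSeq, 1 library per mouse) in whole kidneys of mice aged 3 months. The 5 control mice were Rragc+/+ and the other 5, labelled KI/+, were heterozygous Rragc S74N/+. Rragc encodes RagC, a GTPase that reports amino acid supply to the growth kinase mTORC1, and the knock-in replaces a serine with an asparagine in every cell of the body, so a kidney difference need not begin in the kidney. The mice had been made with Cas9 and were on standard chow, and the study's methods give strain C57BL/6 and both sexes without saying which mouse was of which sex. The comparison asks which genes differ between the kidneys of young mutant and control mice.

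Depth was 6501552 to 7856363 reads on listed genes in the Rragc+/+ libraries and 6872310 to 7996087 in the Rragc S74N/+ libraries. A base substitution cannot be seen in counts, so the level of Rragc does not check the labels. It was 285 ± 42.3 normalized counts (SD, n = 5) in Rragc+/+ and 216 ± 23.6 (n = 5) in Rragc S74N/+, with a log2 fold change of -0.40 and an adjusted p of 0.0678 by limma. The library codes in the labels form 2 runs of numbers with a gap between them, the first holding Rragc+/+ replicates 1 and 2 and Rragc S74N/+ replicate 1, the second the other 3 and 4 mice, and what the runs stand for is not stated. Rragc S74N/+ replicate 5 stood apart in genes looked at after the values were seen. It had 1425 normalized counts of the water channel gene Aqp2 against 615 to 865 in the other mice of its genotype, and 73.0 of the injury gene Lcn2 against 18.8 to 27.5. Its Slc12a1 was 3755, against 5616 to 6495 in those mice.

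The genes are described by role. Cldn2, of the proximal tubule, and Cldn16 and Cldn19, which work as a pair in the thick ascending limb, are counted with the cation-pore claudins. Cldn10 is kept apart, because its first-exon variants make an anion-favouring pore in the proximal tubule and a cation-favouring pore in the thick limb. Cldn4 and Cldn8 form the anion pathway of the collecting duct. Cldn1, Cldn3 and Cldn7 are barrier claudins, with Cldn3 and Cldn7 best known from the distal nephron and collecting duct. The genes lie on several chromosomes. In the GRCm38 annotation Cldn1 and Cldn16 are 91.3 kb apart on chromosome 16, on opposite strands, and Cldn3 and Cldn4 are 39.3 kb apart on chromosome 5.

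Promoter sequences are shown for the 2 genes on which the account turns most, Cldn16, which differed between genotypes, and Cldn10, whose variants are made from different start sites. For Cldn10 the window of the upstream start is shown, since the GENCODE annotation begins its transcript inside the RefSeq window of the downstream start. Each is the 250 bases before a start site, 5′ to 3′ on the plus strand, as given by RefSeq for GRCm38.p6 (mouse expression itself was counted on GRCm39). Capitals mark the HNF1 half-site GTTAAT on either strand, bound by the HNF1 factors of tubular epithelium. RefSeq windows were found for 9 of the 10 genes (12 windows), and not for Cldn8.
Cldn16, chr16:26462885-26463134: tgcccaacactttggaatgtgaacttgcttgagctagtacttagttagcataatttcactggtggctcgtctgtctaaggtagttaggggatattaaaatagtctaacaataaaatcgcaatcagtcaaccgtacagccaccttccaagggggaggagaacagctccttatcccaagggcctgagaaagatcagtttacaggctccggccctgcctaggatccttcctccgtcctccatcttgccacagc
Cldn10 upstream start, chr14:118787621-118787870: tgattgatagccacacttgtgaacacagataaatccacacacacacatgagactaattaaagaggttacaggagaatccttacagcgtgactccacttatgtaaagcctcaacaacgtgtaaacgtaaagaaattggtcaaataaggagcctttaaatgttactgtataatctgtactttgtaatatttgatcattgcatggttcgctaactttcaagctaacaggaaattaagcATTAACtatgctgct

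The 2 Cldn10 windows are unlike each other in base composition. G and C made up 36.0% of the upstream window and 72.4% of the downstream one, against a median of 52.4% over 32851 RefSeq windows and 48.0% in the Cldn16 window. The half-site lay 15 bases before the upstream Cldn10 start and 241 bases before the Cldn1 start, and in no other of the 12 windows. It is common, being present in 6.43% of all windows of this length. The E-box CACGTG, the core to which Tfeb and Tfe3, factors held in the cytoplasm by RagC signalling, can bind, was in 6.02% of all windows and in 0 of the 12. The longer form TCACGTGA (0.785% of all windows, each also counted as an E-box) and the Grhl2 motif AACCNGTT (1.79%) were likewise in 0 of the 12. Both strands were searched, and the absence of these letters from so short a window says nothing about whether a factor acts on the gene.

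In Rragc+/+ kidneys the levels fell into steps. Counts from 3′ libraries do not grow with transcript length, so normalized counts are compared between genes directly, though capture of each 3′ end may differ. Cldn2 was highest at 3140 ± 218 normalized counts (SD, n = 5) and Cldn10 next at 2042 ± 159, and their ranges did not overlap with each other or with the next gene. Cldn19 and Cldn8 overlapped with each other at 269 ± 58.0 and 260 ± 46.0. Cldn16 followed at 125 ± 29.3, overlapping with Cldn4 below it, although it was the higher of the pair in 5 of 5 mice. Cldn4, Tjp1, Cldn1, Cldn3 and Cldn7 made up the lowest step, each overlapping with its neighbour, from 90.6 ± 21.4 for Cldn4 to 46.3 ± 12.0 for Cldn7.

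Cldn16 kept the same place in the order in Rragc S74N/+ kidneys, and the genes that changed places there, all in the lowest step, overlapped with their neighbours. The ranges around Cldn16 differed. In Rragc S74N/+ kidneys it was 219 ± 31.3 and overlapped with Cldn8 above it and no longer with Cldn4 below it. The summed count of the 9 claudins was 6089 ± 334 in Rragc+/+ and 6006 ± 507 in Rragc S74N/+ kidneys, or 0.0851% and 0.0841% of reads. Cldn2 and Cldn10 together took 85.2% ± 1.70 of that sum in Rragc+/+ and 81.8% ± 1.31 in Rragc S74N/+, while Cldn16 took 2.04% ± 0.369 and 3.65% ± 0.407. So the cation- and anion-permeable claudins of the proximal tubule and thick limb supplied most of the claudin reads in both genotypes.

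**Figure D1:**
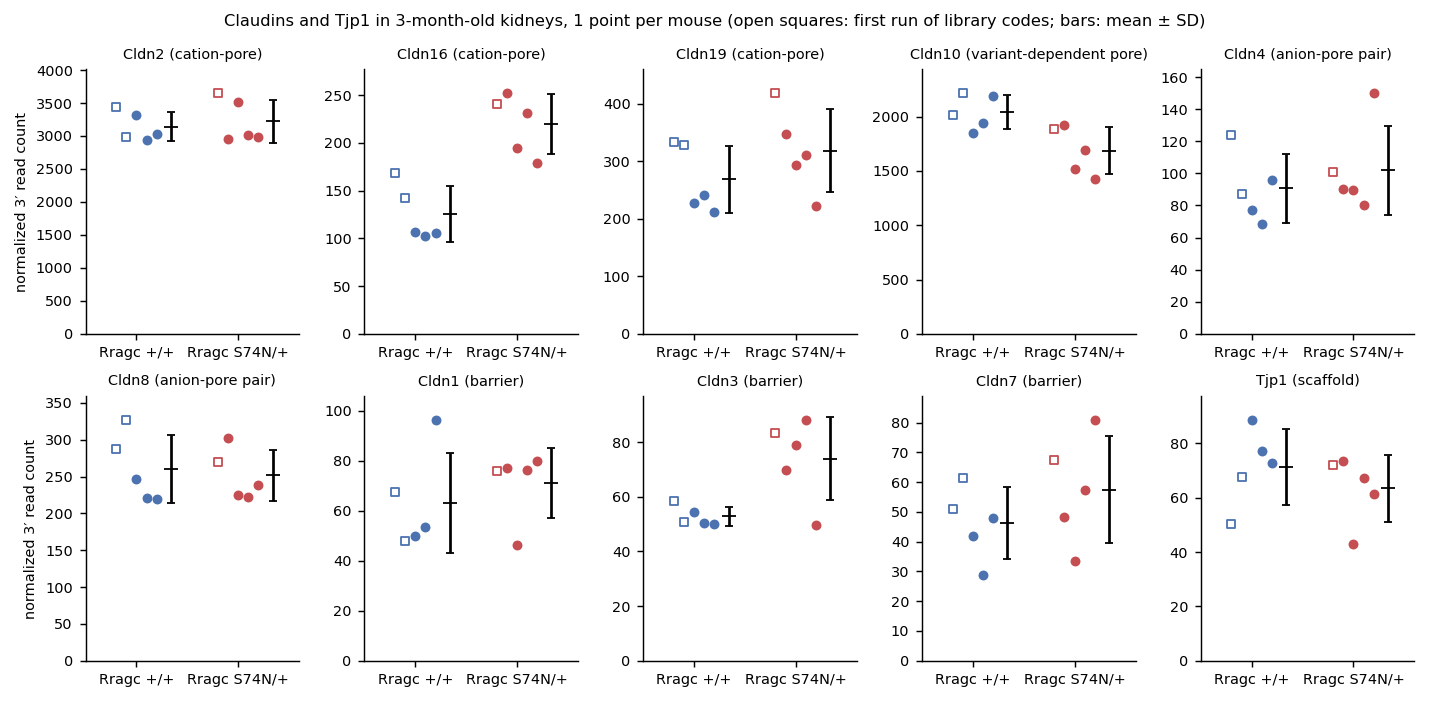
Normalized 3′ read counts (y axes, starting at 0) of the 9 claudins and Tjp1 in 5 Rragc+/+ and 5 Rragc S74N/+ kidneys, with 1 point per mouse, open squares for the first run of library codes, and bars for mean ± SD. The genotypes separate without overlap for Cldn16 (102.9 to 168.9 against 179.0 to 251.8) and overlap for the other 9 genes.

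Of the 10 genes, 1 was called at an adjusted p under 0.05 and it was higher in Rragc S74N/+ kidneys (limma on log2(normalized count + 1), Benjamini-Hochberg over 13197 genes). Among all tested genes 3.69% were called in either direction and 1.67% were called higher. The fold change was above 0 for 7 of the 10 and below 0 for 3, with a median of 0.18 on the log2 scale, beside 0.00046 for all tested genes. The genotypes did not overlap in 1 of the 10, compared with 5% of all tested genes.

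Cldn16 was the gene called. It encodes claudin-16 (paracellin-1), which is needed in the thick ascending limb to reclaim magnesium and calcium between cells, and whose loss causes wasting of both. The 5 Rragc+/+ kidneys had 168.9, 142.3, 106.6, 102.9 and 105.7 normalized counts, and the 5 Rragc S74N/+ kidneys had 240.9, 251.8, 194.4, 231.3 and 179.0. Every mutant was above every control, although the gap between the highest control and the lowest mutant was small. The difference was 0.82 on the log2 scale (SE 0.15, 95% interval 0.51 to 1.13, adjusted p = 0.0028 by limma), a 1.77-fold rise. It remained called in each of the 21 alternative analyses, at 0.76 to 1.01.

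The 2 highest Rragc+/+ values of Cldn16 were those of replicates 1 and 2, from the first run of library codes. Within the second run the 3 Rragc+/+ mice lay at 102.9 to 106.6 and the 4 Rragc S74N/+ mice at 179.0 to 251.8, a log2 difference of 1.01 (adjusted p = 0.0019, limma). In the first run the single Rragc S74N/+ mouse, at 240.9, was above both Rragc+/+ mice, at 142.3 and 168.9. Thus the difference had the same direction in each run of codes. Without Rragc S74N/+ replicate 5 it was 0.89 (adjusted p = 0.0017).

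Cldn19 encodes the partner with which claudin-16 forms the cation-selective strand, and its loss likewise wastes magnesium. Its counts were 333, 329, 228, 242 and 211 in the Rragc+/+ kidneys and 418, 348, 293, 311 and 222 in the Rragc S74N/+ kidneys. The groups overlapped, with replicate 5 again the lowest mutant. The log2 difference of 0.24 (SE 0.16, 95% interval -0.10 to 0.58) was not called (adjusted p = 0.533, limma). The first run was high here too, at 329 and 333 against 211 to 242 for the other Rragc+/+ mice. With the run of codes as a covariate the difference was 0.35 (adjusted p = 0.0793).

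Within a mouse the 2 partners differed in proportion. This ratio was taken up after the values had been seen and is given without a test. Cldn16 counts divided by Cldn19 counts were 0.507, 0.432, 0.468, 0.425 and 0.50 in Rragc+/+ mice and 0.576, 0.723, 0.663, 0.743 and 0.807 in Rragc S74N/+ mice. The means were 0.466 ± 0.0376 and 0.702 ± 0.0874 (SD, n = 5 each), and the genotypes did not overlap, whereas 2.21% of 13196 genes gave a ratio to Cldn19 that did not overlap. The mutant ratio was lowest in replicate 1, the only mutant of the first run.

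**Figure D2:**
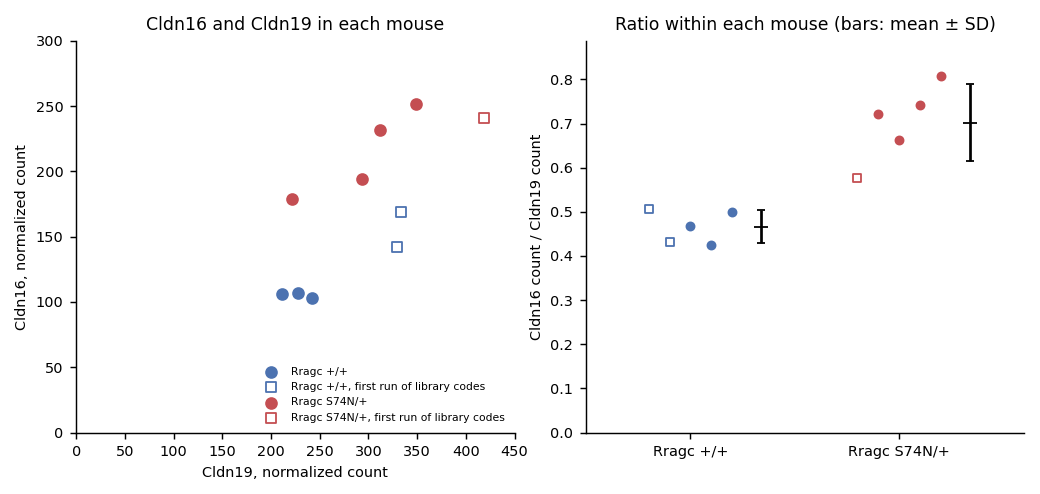
Left, normalized counts of Cldn16 (y) against Cldn19 (x) in each mouse, with open squares for the first run of library codes. Right, the ratio of the 2 counts by genotype with mean ± SD, where Rragc+/+ mice lie at 0.425 to 0.507 and Rragc S74N/+ mice at 0.576 to 0.807.

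Cldn2, the third cation-pore claudin, lines the leaky proximal tubule and carries sodium and water between its cells. It was 3140 ± 218 in Rragc+/+ and 3224 ± 329 in Rragc S74N/+ kidneys, with ranges of 2939 to 3432 and 2961 to 3646. The log2 difference of 0.03 had an interval from -0.14 to 0.21 (adjusted p = 0.897, limma). In both genotypes 2 mice stood above the other 3, which lay between 2939 and 3026 in all, so the groups lay over each other.

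Cldn10 had the lower values in mutant kidneys, without being called. The Rragc+/+ mice had 2019, 2214, 1846, 1939 and 2191 normalized counts and the Rragc S74N/+ mice had 1883, 1926, 1521, 1690 and 1422. All 5 mutants were under the control mean and 3 of them under the lowest control, and the groups overlapped. The log2 difference was -0.28 (SE 0.09, 95% interval -0.48 to -0.08) with an adjusted p of 0.126, and the adjusted p lay between 0.0555 and 0.291 over the alternatives. In the GRCm38 annotation its 3 coding transcripts begin at 2 places and all end in the same last exon, which starts at position 118874192 of chromosome 14. The annotated ends within that exon differ, at 118874524 and 118874525 for the upstream-start transcripts and 118875489 for the downstream-start one. The deposited counts are per gene, so they do not separate the first-exon forms.

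The anion-pathway pair of the collecting duct did not separate by genotype. Cldn8 encodes the claudin that brings claudin-4 to the junction there. It was 260 ± 46.0 in Rragc+/+ and 252 ± 34.2 in Rragc S74N/+ kidneys, a log2 difference of -0.04 (95% interval -0.31 to 0.22, adjusted p = 0.920, limma) whose sign turned with the run of codes. The Rragc+/+ mice of the first run had 288 and 326, against 220 to 247 in the others, and within the second run the difference was 0.10. Cldn4 was 90.6 ± 21.4 and 102 ± 27.7, a log2 difference of 0.16 (95% interval -0.22 to 0.54, adjusted p = 0.746). The highest Cldn4 value of all, 150, was that of Rragc S74N/+ replicate 5, whose Aqp2 was also highest, and the other 4 mutants had 80.1 to 101.

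Among the barrier claudins Cldn3, which tightens the junction, came nearest to a call. The 5 Rragc+/+ kidneys lay close together at 58.4, 50.7, 54.4, 50.4 and 50.2 normalized counts, and the Rragc S74N/+ kidneys had 83.5, 69.7, 78.8, 88.0 and 49.6. Thus 4 mutants were above every control and replicate 5 was below every control. The log2 difference was 0.45 (SE 0.16, 95% interval 0.11 to 0.79, adjusted p = 0.158, limma). Without Rragc S74N/+ replicate 5 it was 0.59 and was called (adjusted p = 0.0294), so that 1 library decided which side of the threshold Cldn3 took.

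Cldn7 and Cldn1 varied more between mice than between genotypes. Cldn7, found along the basolateral membrane and junction of collecting duct cells, was 46.3 ± 12.0 in Rragc+/+ and 57.5 ± 18.0 in Rragc S74N/+ kidneys (log2 difference 0.29, 95% interval -0.20 to 0.77, adjusted p = 0.628). Cldn1, a general barrier claudin that in the normal glomerulus marks the parietal cells of Bowman's capsule, was 63.0 ± 20 and 71.0 ± 13.9 (log2 difference 0.19, 95% interval -0.23 to 0.61, adjusted p = 0.726). Cldn1 was high in 1 control, at 96.1, and low in 1 mutant, at 46.2. These intervals leave room for a rise or a small fall of either gene.

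Tjp1, the scaffold that links claudin tails to actin, was 71.2 ± 14.0 in Rragc+/+ and 63.4 ± 12.3 in Rragc S74N/+ kidneys. The ranges, 50.2 to 88.5 and 43.1 to 73.4, overlapped. The log2 difference was -0.17 (95% interval -0.54 to 0.21, adjusted p = 0.739, limma). Replicate 3 was the lowest Rragc S74N/+ mouse for Tjp1 as well as for Cldn1 and Cldn7.

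**Figure D3:**
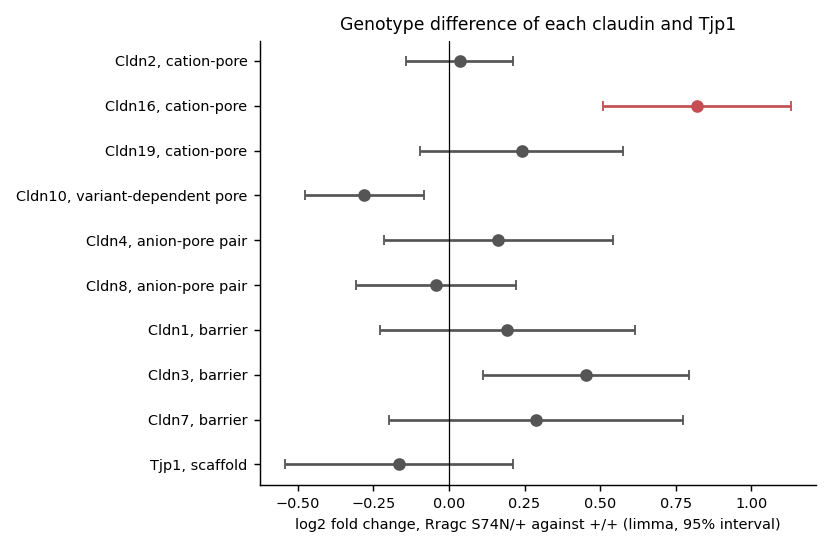
Log2 fold change (x axis) of each claudin and of Tjp1, Rragc S74N/+ against Rragc+/+, as points with 95% intervals from limma, ordered by role, with the called gene in red. Cldn16 lies at 0.82 (0.51 to 1.13), the intervals of Cldn3 and Cldn10 leave out 0 before adjustment, and the other 7 intervals include 0.

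Cldn16, Cldn19 and Cldn10 were next set against the markers of the thick ascending limb, the segment each was assigned to. The Cldn10 count does not separate its proximal tubule form. In bulk tissue fewer cells of a type and less RNA per cell cannot be told apart. Of 8 markers 6 were tested, 4 fell and none rose, beside 3.69% of all tested genes called in either direction. Umod (uromodulin, the main secreted protein of the segment) fell from 22917 ± 3438 to 11569 ± 2214 (log2 -0.999, adjusted p = 0.000198, limma). The calcium-sensing receptor gene Casr fell by 1.002, the prostaglandin receptor gene Ptger3 fell by 1.63 and the potassium channel gene Kcnj1 fell by 0.80 on the log2 scale, with adjusted p values of 0.0013, 3.7e-06 and 0.0156, the Kcnj1 call holding in 19 of 21 alternatives. Slc12a1, the sodium-potassium-chloride cotransporter of the segment, at -0.22 (adjusted p = 0.438), and Ppp1r1a, at -0.24 (adjusted p = 0.501), were not called. The summed counts of the listed markers were 28169 to 37414 in Rragc+/+ and 12622 to 21316 in Rragc S74N/+ kidneys, the lowest sum being that of replicate 5. Umod was the largest part of each sum, so the sums mostly follow that gene.

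So Cldn16 was higher in the kidneys in which Umod, Casr, Ptger3 and Kcnj1 were lower. Relative to the mean log2 level of the 6 markers, which was lower by 0.82 in the mutants, Cldn16 was higher by 1.64, Cldn19 by 1.06 and Cldn10 by 0.53, and each of the 3 separated the genotypes. That separation is no property of these claudins, because 60.4% of all tested genes separated the genotypes on that scale. Relative to Slc12a1 alone, Cldn16 was 0.0198 ± 0.00459 in Rragc+/+ and 0.0405 ± 0.00683 in Rragc S74N/+ mice. The highest ratio, 0.0477, was that of Rragc S74N/+ replicate 5, which had the lowest Cldn16 and the lowest Slc12a1 of the mutants. How many of all tested genes separate the genotypes relative to Slc12a1 was not counted. The part of cell composition in the Cldn16 difference was not tested.

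**Figure D4:**
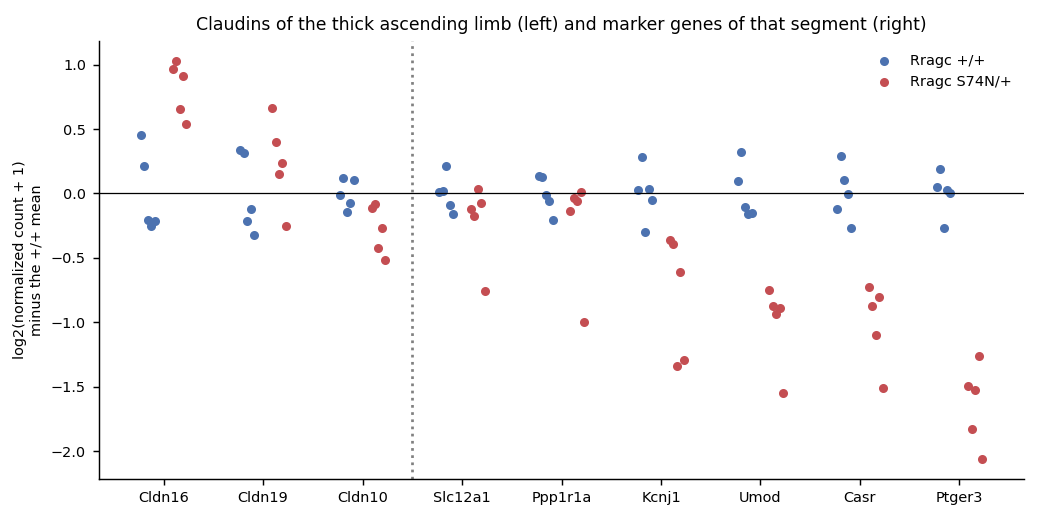
Log2(normalized count + 1) of 3 claudins and 6 marker genes of the thick ascending limb in each mouse, minus the Rragc+/+ mean (y axis), with Rragc+/+ in blue and Rragc S74N/+ in red. Cldn16 lies above the Rragc+/+ mice, and Umod, Casr, Ptger3 and Kcnj1 lie below them, in all 5 mutants.

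The other segments were set beside their claudins in the same way, again with 3.69% of all tested genes called in either direction. Of 12 proximal tubule markers 2 rose (Slc22a6 and Slc13a3), 2 fell (Slc5a2 and Slc5a12) and 8 were not called. Relative to their mean log2 level Cldn2 differed by 0.05 and overlapped, beside 4.80% of all genes that did not overlap. Of 9 principal cell markers of the collecting duct 2 rose, Avpr2, the vasopressin receptor gene (0.88, adjusted p = 0.00076), and Hsd11b2 (0.43, adjusted p = 0.0478), and 7 were not called. The Hsd11b2 call held in 10 of 21 alternatives. Relative to those 9 markers, whose mean was higher by 0.37, Cldn3 was 0.08 higher, Cldn7 0.08 lower, Cldn4 0.21 lower and Cldn8 0.41 lower on the log2 scale, all 4 overlapping, while 18.4% of all genes did not overlap. Thus none of the 4 claudins set against principal cell markers separated the genotypes on either scale. Cldn3 and Cldn7 are also known from the distal nephron, so their relative values depend on this choice of segment.

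The other lists are given by count, beside 3.69% of all tested genes called in either direction. In the distal convoluted tubule 4 of 9 markers fell and none rose, and in the intercalated cells 3 of 10 fell and none rose. In the thin limb 1 of 4 fell and in podocytes 1 of 6 rose. None of 8 endothelial or 7 leukocyte markers was called. Of 6 tubular injury genes tested 2 rose and 1 fell.

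Of 40 further tight junction genes listed, 29 were tested and the other 11 were not analysed here. F11r rose, Jam3 fell and 27 were not called, with a median log2 difference of -0.01. The calls were 6.90% of those tested, beside 3.69% of all tested genes called in either direction. F11r, which encodes the junctional adhesion molecule JAM-A, had 983 to 1138 normalized counts in Rragc+/+ and 1145 to 1337 in Rragc S74N/+ kidneys (log2 0.29, SE 0.08, adjusted p = 0.0418, limma), and the call was lost in 12 of 21 alternatives. Jam3, the gene of JAM-C, had 133 to 171 and 80.9 to 120 (log2 -0.59, SE 0.13, adjusted p = 0.0115) and remained called in all 21. Neither gene overlapped between genotypes, as was true of 5% of all tested genes. Cgnl1, which encodes the junction plaque protein paracingulin and had the highest counts of the list, was 2879 ± 629 and 2251 ± 349 and was not called (log2 -0.34, adjusted p = 0.205).

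Of 12 genes known to act on claudins, 5 fell and 7 were not called, beside 3.69% of all tested genes called in either direction. Casr is among them as well as among the thick limb markers, since calcium sensed there limits the claudin-16 and claudin-19 pore through claudin-14. The gene of claudin-14 was not analysed here. Klhl3 is the ubiquitin ligase adaptor reported to bind claudin-8, and is also counted above among the distal convoluted tubule markers that fell. It went from 473 ± 52.7 to 231 ± 16.6 (log2 -1.03, adjusted p = 3.1e-06, limma). Lnx1, a ligase of a family that removes claudins from the junction, fell by 1.11 (35.4 ± 9.31 to 15.6 ± 2.82, adjusted p = 0.0127). The kinase genes Wnk4 and Stk39, which regulate salt transport in the distal nephron, fell by 0.43 and 0.52 on the log2 scale (adjusted p = 0.0354 and 0.0245). The calls of Casr and Klhl3 held in all 21 alternatives, that of Lnx1 in 18 of 20, that of Stk39 in 15 of 21 and that of Wnk4 in 11 of 21. The parathyroid hormone receptor gene Pth1r and the transcription factor gene Tfcp2l1, highest in the list, were at 0.29 and 0.21 and were not called (adjusted p = 0.0778 and 0.299). Pth1r did not overlap between genotypes, as was true of 5% of all tested genes. It was called higher in 3 of 21 alternatives (DESeq2, the run of codes as a covariate, and the second run alone), and Tfcp2l1 in 1 of 21 (the covariate).

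With the genotype means taken away, the genes whose log2 levels followed Cldn16 most closely over the 10 mice were Atp1b3, a sodium pump subunit gene (Pearson r 0.96), Herpud1, a gene of endoplasmic reticulum quality control (0.94), and Tpd52 (0.93), out of 9135 genes with a mean of at least 50. Cldn19 followed it at 0.88, Cldn8 at 0.76 and Cldn10 at 0.60, and Cldn1 at 0.07. These are descriptions without a test, and the points share the 2 runs of library codes. Among Rragc+/+ mice Cldn16, Cldn19 and Cldn8 were all higher in the first run. Of these genes only Cldn19 was higher in the single first-run mutant than in every other mutant. None of the 3 nearest genes differed by more than 0.08 between genotypes on the log2 scale, and none was called (adjusted p = 0.755, 0.803 and 0.871).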

How the data were processed

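The authors aligned the reads with TopHat2 2.0.10 to GRCm39 and counted them per gene with HTSeq 0.6.1 on GENCODE vM26, using strand. They deposited a signal per gene and library, the read count divided by a DESeq size factor (0.882 to 1.12 over the 10 libraries). All 10 columns matched a mouse. The lowest gene mean was 5.64, so genes of lower mean were not analysed here. Multiplied by the size factor, 100% of the values were whole reads (tolerance 0.01 reads), and edgeR 4.0.16 and DESeq2 1.42.0 were run on these reads as alternatives.

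The main test was limma 3.58.1 (R 4.3.3) with a mean trend, two-sided, on log2(normalized count + 1), for genes reaching 10 normalized counts in 5 or more mice. P values were adjusted by Benjamini-Hochberg over all of these genes, at a threshold of 0.05. The pseudocount understates changes of low genes. Scripts were tested on simulated data. Each library was taken as 1 animal from the labels, which state nothing more on sampling.

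The claudins, the lists of junction, regulator and marker genes, and the tests were chosen with earlier results of these data known. From the tight junction and regulator lists the text names the called genes and the 2 of highest mean, and from the markers those of the segments of these claudins. The 3 genes nearest to each called claudin were taken by Pearson correlation. The listed names Pals1 and Cldn25 were matched as Mpp5 and Cldnd1 through RefSeq synonyms, and both are among the tight junction genes tested. Motifs were counted in RefSeq promoter windows. Alternatives changed the pseudocount, filter, scaling, trend, tool, run of library codes or left out 1 mouse.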

Additional observations from a re-analysis of the deposited data

Results flagged for a closer look

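Cldn1 in Rragc S74N/+ replicate 3 was 46.2 normalized counts, while the other 4 mice of that genotype had 75.9 to 79.8. The gap of this mouse to its nearest neighbour was 0.884 of the whole range of the group, which is above Dixon's critical value for 5 samples. Over the 20 groups examined (10 genes in 2 genotypes), chance gives about 1 value in 20 above that critical value. This rate is that of the critical value and not of a gap as wide as 0.884.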

How the results depend on the processing

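Cldn16 stayed higher and called in all 21 alternatives (log2 0.76 to 1.01, adjusted p 4.2e-05 with DESeq2 to 0.0249 over the settings tried), and at 0.76 to 0.94 when 1 mouse was left out. It was the only one of the 10 genes called in 20 of 21, the exception being the fit without Rragc S74N/+ replicate 5, in which Cldn3 was called as well (2 genes, leave-one-out range 1 to 2, Cldn3 0.38 to 0.59, adjusted p = 0.0294 in that fit). The sign of 2 uncalled differences was not fixed. Cldn2 was -0.044 with quantile normalization and -0.011 without Rragc S74N/+ replicate 1 (leaving out 1 mouse, -0.011 to 0.068). Cldn8 was 0.019 with the run of library codes as a covariate, 0.098 within the second run and 0.043 without Rragc+/+ replicate 2 (leaving out 1 mouse, -0.11 to 0.043). Of all tested genes 3.69% were called (487), against 2.21% without the mean trend (291), 6.30% with the covariate (832), and 2.24% to 3.53% with 1 mouse left out, the lowest counts being 310 without Rragc+/+ replicate 4 and 295 without replicate 5. On recovered reads edgeR called 480 genes and DESeq2 648. The tight junction list had 2 calls, against 1 with quantile normalization, without the trend and with edgeR, 4 with the covariate (Cgnl1, F11r, Jam3 and Magi3), and 1 to 2 with 1 mouse left out. F11r kept its call only without Rragc+/+ replicate 1 or Rragc S74N/+ replicate 4 among those fits. The regulators had 5 calls, against 3 without the trend or within the second run, 6 with DESeq2 (adding Pth1r), 7 with the covariate (adding Pth1r and Tfcp2l1), and 3 to 4 with 1 mouse left out, the 3 arising without Rragc+/+ replicate 3 or 4 or Rragc S74N/+ replicate 5. Wnk4 kept its call in 2 of those 10 fits, Stk39 in 6 and Lnx1 in 9. Lnx1 fell below the filter on a mean of 50. The cause of these shifts was not tested. No paired analysis was possible because replicate numbers were given in accession order and pair no mice. For Cldn1, Cldn3, Cldn4, Cldn7 and Tjp1, with group means of 46.3 to 102 normalized counts, counting error is large, and a p that misses the threshold does not show equal levels.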
